A study of Mus musculus with 12 samples.

Results

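The vascular endothelial growth factor (VEGF) family, the angiopoietins and Angptl4 were described across 12 RNA-seq libraries of cultured mouse retinal glia. The set holds 10 genes, matched by their mouse symbol, of 49315 genes in the count tables. It comprises 5 ligands (Vegfa, Vegfb, Vegfc, Vegfd and Pgf), the receptor genes Flt1 and Kdr, the angiopoietin genes Angpt1 and Angpt2, and Angptl4.

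VEGF ligands are secreted proteins that act on receptor tyrosine kinases, mainly of endothelial cells. VEGF-A signals through VEGFR2, the product of Kdr, while VEGFR1, the product of Flt1, binds VEGF-A, VEGF-B and placental growth factor and often acts as a trap, also as a secreted short form. In the retina, Müller glia are a known source of VEGF-A, and low oxygen raises its transcript through hypoxia-inducible factors (HIF). Angiopoietin-1 and angiopoietin-2 act on the receptor TIE2, the product of Tek, and ANGPTL4 inhibits lipoprotein lipase and is also known from retinal vascular leakage.

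The cells were primary Müller glia of wild-type mice, passed at least 3 times, which were grown in transwells beside primary retinal pigment epithelium (RPE). The epithelium had received 100 nM PNU-282987 (PNU), which activates α7 nicotinic receptors, or DMSO alone, and co-culture lasted 2 h or 6 h, which gives 4 groups of 3 libraries. DMSO was present in both arms, at 0.1% in one label and 1% in another. The strain and age of the mice are not given in the sources used here, and the labels do not say whether replicates came from separate animals or cultures, so the p-values rest on the spread among these libraries, which may be technical.

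Library totals ran from 44332013 to 66518799 counts. A pair of libraries stood apart from their groups over all genes: replicate 3 of DMSO at 2 h lay nearest to replicate 1 of PNU at 2 h (root mean square log2 distance 0.227, against 0.584 and 0.631 to its own group), and replicate 1 of PNU at 6 h nearest to replicate 1 of DMSO at 6 h (0.306, against 0.470 and 0.471 to its own group). Replicate 1 of PNU at 2 h also lay nearer to that DMSO library than to its own group (0.320 and 0.316). Replicates 1 and 2 of DMSO at 2 h lay nearer to DMSO libraries at 6 h (0.284 and 0.208) than to each other (0.308). Conversely, replicates 2 and 3 of PNU at 2 h, replicates 2 and 3 of PNU at 6 h, and all 3 libraries of DMSO at 6 h were nearly identical: coefficients of variation lay between 0.0163 and 0.0223 for these pairs, against 0.148 to 0.384 for the other pairs of a group. They still differed by more than sampling noise, with a chi-square per degree of freedom of 1.98 to 3.19. This does not show that they came from separate cultures. Each was kept as a library, so tests that use them may overstate the number of independent replicates. Results for the members at 2 h and 6 h, and for the other genes named as called, are therefore also given without the 2 libraries that stood apart. That fit covered all genes and kept replicate 1 of PNU at 2 h. Values from it are not given for genes that were neither members nor named as called. Leaving out libraries rests on the same values as the test, and the effect of summing the nearly identical ones is given with the alternatives.

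The labelled cell type was checked against its markers. Vim reached 6063 to 7451 CPM, which are counts scaled to equal library totals, and Glul 61.5 to 94.4 CPM, while 5 of 12 Müller glia markers were below 1 CPM in every library. The summed level of the 12, 6287 to 7752 CPM, was nearly all Vim, which fibroblasts also express. Rlbp1 stayed at or below 0.302 CPM and Aqp4 at or below 0.218 CPM. Other Müller glia markers were higher, with Sox9 at 63.4 to 292 CPM, Dkk3 at 9.54 to 67.5 CPM, Clu at 5.53 to 42.8 CPM and Apoe at 5.35 to 14.2 CPM. Of 10 fibroblast markers, 9 had a median above 1 CPM. Col1a1 stood at 3509 to 4895 CPM, while Thy1 ranged from 0.309 to 21.9 CPM and Lum stayed at or below 1.13 CPM. Of 16 endothelial markers, 10 were below 1 CPM in every library. Pecam1 reached at most 0.351 CPM, Cdh5 0.373 CPM, Tie1 0.141 CPM and Cldn5 0.0176 CPM, and Sox17 had 0 counts throughout. Other endothelial markers were above 1 CPM in every library. Eng stood at 248.8 to 381.0 CPM, Ptprb at 27.0 to 122.5 CPM, Cd34 at 26.8 to 81.5 CPM and Plvap at 1.41 to 7.79 CPM. The Y-linked gene Ddx3y ranged from 0.0150 to 7.43 CPM and differed within groups.

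The stretches before the transcription starts of Vegfa, Vegfb and Flt1 are shown because the results turn on these ligands and on the gene of the receptor that binds both. Each is the 250 bases upstream of the RefSeq start on GRCm38.p6, read on the gene's own strand, which is the minus strand for each gene. Vegfa is taken from chr17:46032378-46032627, Vegfb from chr19:6987652-6987901 and Flt1 from chr5:147726012-147726261; of 2 listed Vegfa starts, the one nearest the 5′ end of the gene in the count tables was used. Capitals mark every match, on either strand, to ACGTG or GCGTG (the core bound by HIF), TGANTCA (the AP-1 site), GGGCGG (the GC box) and TGACGTCA (the CREB site), and neighbouring matches run together.
Vegfa: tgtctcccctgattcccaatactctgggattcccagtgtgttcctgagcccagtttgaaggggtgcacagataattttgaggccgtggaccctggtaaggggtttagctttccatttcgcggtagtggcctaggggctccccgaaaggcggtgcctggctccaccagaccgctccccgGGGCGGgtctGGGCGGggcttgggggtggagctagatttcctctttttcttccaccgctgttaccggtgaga
Vegfb: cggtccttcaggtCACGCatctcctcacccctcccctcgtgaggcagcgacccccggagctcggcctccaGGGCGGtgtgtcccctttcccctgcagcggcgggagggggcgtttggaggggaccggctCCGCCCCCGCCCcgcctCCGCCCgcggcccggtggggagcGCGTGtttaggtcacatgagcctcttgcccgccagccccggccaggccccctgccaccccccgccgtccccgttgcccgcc
Flt1: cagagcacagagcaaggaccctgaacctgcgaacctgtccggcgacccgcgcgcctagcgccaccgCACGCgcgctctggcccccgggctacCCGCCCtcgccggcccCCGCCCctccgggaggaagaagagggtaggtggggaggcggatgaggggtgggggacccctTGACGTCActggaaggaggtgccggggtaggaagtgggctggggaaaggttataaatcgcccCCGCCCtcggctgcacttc
The Vegfa window held 2 GC boxes, at -72 to -67 and -62 to -57 from the start, and no match to the other motifs. The Vegfb window had a GC content of 76.4%, against 59.2% for Vegfa, and held 2 GCGTG matches and 4 GC boxes. The Flt1 window held 1 GCGTG match, 3 GC boxes and, at -81 to -74, a CREB site, which stands in 1.55% of 32851 promoter windows of this length. Over those windows, 38.6% held ACGTG or GCGTG, 32.7% a GC box and 6.75% an AP-1 site. Of the 10 genes, 7 had a promoter entry; Angpt1, Angpt2 and Angptl4 had none. No entry among the 7 held ACGTG, 4 held GCGTG (Vegfb, Pgf, Flt1 and Kdr), and all but Vegfd held a GC box. All 250 bases of the Pgf window and 144 of the Vegfd window are annotated as untranslated exon sequence of the same gene. Sequence further upstream was not searched, so a missing match holds for these windows only.

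Levels of different genes were compared per kilobase of exon, as RPKM (CPM per kilobase). Vegfa was the most abundant of the 10, with a mean of 81.0 RPKM over the 12 libraries and a range of 39.8 to 177 RPKM. Vegfb followed at 28.3 RPKM and Vegfd at 16.5 RPKM, then Angptl4 at 5.03, Angpt1 at 3.54, Vegfc at 1.92, Pgf at 1.501, Flt1 at 0.929, Angpt2 at 0.618 and Kdr at 0.0822 RPKM. Neighbours in this order overlapped in range, apart from Angpt2 above Kdr. Vegfa exceeded Vegfb in 10 of 12 libraries, Vegfc exceeded Pgf in 7, and Flt1 exceeded Angpt2 in 6, so the last pair had no order across libraries. Kdr had 19 to 71 counts per library, or 0.359 to 1.07 CPM, which is above the 0.0451 to 0.0677 CPM that 3 counts amount to. Every ligand thus had a higher RPKM, averaged over the libraries, than either receptor gene.

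**Figure D1:**
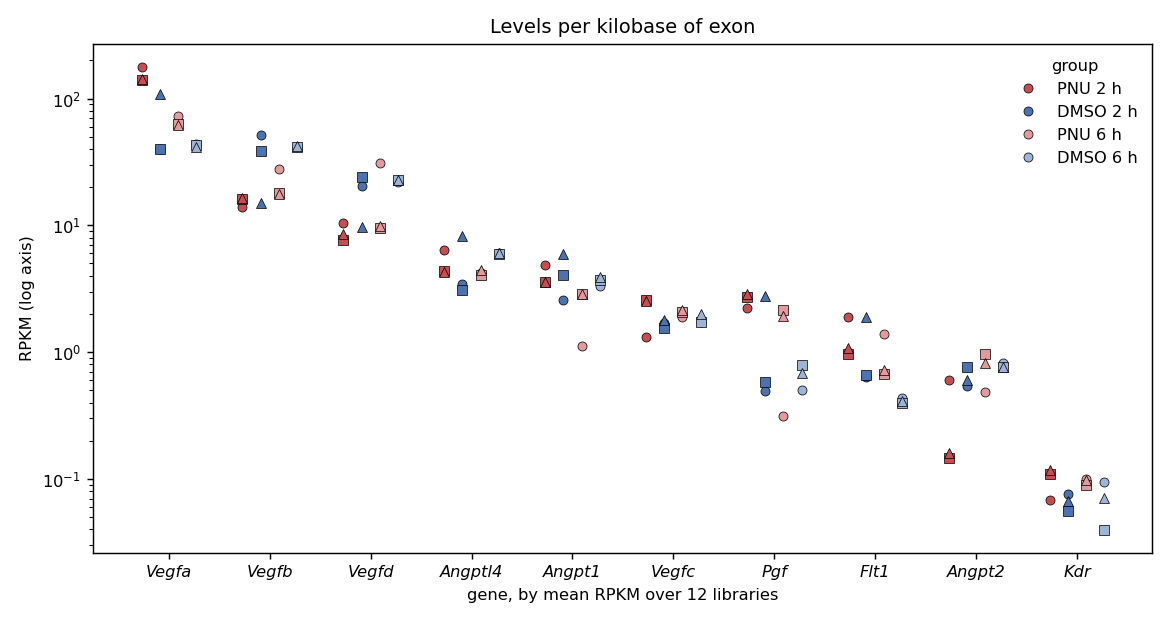
Level of each gene per kilobase of exon, in RPKM on a log axis, with 1 point for each of 12 libraries, coloured by group; circles, squares and triangles are replicates 1, 2 and 3. Genes are ordered by mean RPKM, from Vegfa at 81.0 to Kdr at 0.0822.

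Changes are given as log2 fold changes, PNU over DMSO, with the standard error (SE) of the fit. Adjusted p-values are those of edgeR's quasi-likelihood test with Benjamini-Hochberg adjustment over 17164 genes, all 10 members among them, and a gene was called where its adjusted p was below 0.05. In bulk RNA, fewer cells of a type and less RNA per cell cannot be told apart. No member was called for PNU against DMSO at 2 h, where 0.291% of all tested genes were called, or at 6 h, where 1.05% were. At an unadjusted p under 0.05, 4 members stood at 2 h and 2 at 6 h, against 5149 and 2683 of all tested genes. With DESeq2, 2 of 10 members were called at 2 h, Vegfa and Vegfb, where 14.6% of all tested genes were, and 0 at 6 h, where 5.38% were.

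Vegfa (ENSMUSG00000023951, chr17:46016993-46032369, minus strand, GRCm38) encodes the main angiogenic ligand. At 2 h it was measured at 758, 604 and 607 CPM in PNU libraries (replicates 1, 2 and 3), against 170, 173 and 461 CPM in DMSO libraries. All PNU libraries lay above all DMSO libraries, and replicate 3 of DMSO, one of those that stood apart, lay between the rest. Of all tested genes, 9.06% had every PNU library above every DMSO library at 2 h, and Vegfa was the only member of 10 to do so. The means were 657 ± 87.9 CPM in PNU and 268 ± 167 CPM in DMSO (SD, n = 3 each), a log2 fold change of 1.33 ± 0.32 that was not called (adjusted p = 0.0636). Without replicate 3 of DMSO at 2 h, the fold change was 1.97 and was called (adjusted p = 1.17e-06). That fit called 43.8% of all tested genes at 2 h, and the fit without both libraries that stood apart, where Vegfa had 1.98 ± 0.10 (adjusted p = 6.20e-08), called 52.2%.

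At 6 h Vegfa stood at 311, 268 and 264 CPM in PNU libraries, against 187, 184 and 179 CPM in DMSO libraries. The groups did not overlap. The log2 fold change was 0.63 ± 0.32 (adjusted p = 0.373), and 0.55 ± 0.10 without both libraries that stood apart, where it was called (adjusted p = 0.00114), as were 28.6% of all tested genes. It was also called in a fit of the 6 h libraries alone (adjusted p = 0.00607; 10.1% of all tested genes) and without replicate 3 of DMSO at 2 h (adjusted p = 0.00332; 9.1% of all tested genes), which enters the 6 h test only through the shared estimate of spread.

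Vegfb (ENSMUSG00000024962, chr19:6982473-6987651, minus strand) encodes a ligand of VEGFR1 with weak angiogenic activity that is known from fatty acid handling. At 2 h its level was 22.2, 26.0 and 26.3 CPM in PNU libraries, against 83.1, 61.8 and 24.3 CPM in DMSO libraries. The groups overlapped only through replicate 3 of DMSO, the library that also had high Vegfa. The log2 fold change was -1.16 ± 0.35 (adjusted p = 0.0803), and -1.52 without that replicate, where it was called (adjusted p = 0.000228). At 6 h Vegfb stood at 44.7, 28.7 and 28.2 CPM in PNU libraries, against 66.8, 66.0 and 68.0 CPM in DMSO libraries. Every PNU library was lower, and replicate 1 of PNU, the other library that stood apart, was the nearest to DMSO. The log2 fold change was -0.97 ± 0.35 (adjusted p = 0.208). It was called at -1.22 ± 0.13 without both libraries (adjusted p = 3.26e-05), without replicate 3 of DMSO at 2 h alone (adjusted p = 0.00982) and in a fit of the 6 h libraries alone (adjusted p = 0.0263).

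Vegfd (ENSMUSG00000031380, chrX:164373378-164402650, plus strand) and Vegfc (ENSMUSG00000031520, chr8:54077606-54187096, plus strand) encode the ligands of VEGFR3, the receptor of lymphatic endothelium. At 2 h Vegfd stood at 24.9, 18.5 and 20.7 CPM in PNU libraries, against 49.6, 58.0 and 23.3 CPM in DMSO libraries, and the overlap again came from replicate 3 of DMSO. At 6 h its level was 74.0, 22.8 and 23.6 CPM in PNU libraries, against 52.4, 55.3 and 54.8 CPM in DMSO libraries. Replicate 1 of PNU thus had the highest Vegfd of all 12 libraries while the other 2 were among the lower ones. The log2 fold changes were -0.99 ± 0.44 at 2 h and -0.42 ± 0.44 at 6 h (adjusted p = 0.164 and 0.697). Without both libraries they were -1.29 ± 0.11 and -1.21 ± 0.11, and both were called. The 6 h value was also called, at -1.21, without replicate 1 of PNU at 6 h alone (adjusted p = 0.0424), where 6% of all tested genes were.

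Vegfc varied less. It stood at 3.23, 6.31 and 6.24 CPM in PNU and 4.12, 3.80 and 4.36 CPM in DMSO at 2 h, and at 4.67, 5.10 and 5.24 CPM in PNU and 4.26, 4.25 and 4.90 CPM in DMSO at 6 h. The groups overlapped at both times, and the log2 fold changes were 0.39 ± 0.22 and 0.18 ± 0.21 (adjusted p = 0.234 and 0.742). Without both libraries that stood apart they were 0.45 ± 0.23 and 0.22 ± 0.22 (adjusted p = 0.117 and 0.503). Vegfc was not called in any alternative.

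Pgf (ENSMUSG00000004791, chr12:85166639-85177296, minus strand) encodes placental growth factor, a ligand of VEGFR1. At 2 h it had 160, 196 and 302 counts in PNU libraries, against 46, 48 and 278 counts in DMSO libraries, or 3.54, 4.26 and 4.54 CPM against 0.777, 0.927 and 4.35 CPM. At 6 h its level was 0.492, 3.42 and 3.07 CPM in PNU libraries, against 0.789, 1.25 and 1.07 CPM in DMSO libraries. The 2 libraries that stood apart were each on the far side of their group, high in DMSO at 2 h and low in PNU at 6 h. The log2 fold changes were 1.05 ± 0.69 and 1.18 ± 0.72 (adjusted p = 0.311 and 0.472), and 2.31 ± 0.20 and 1.65 ± 0.18 without both libraries, where both were called.

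**Figure D2:**
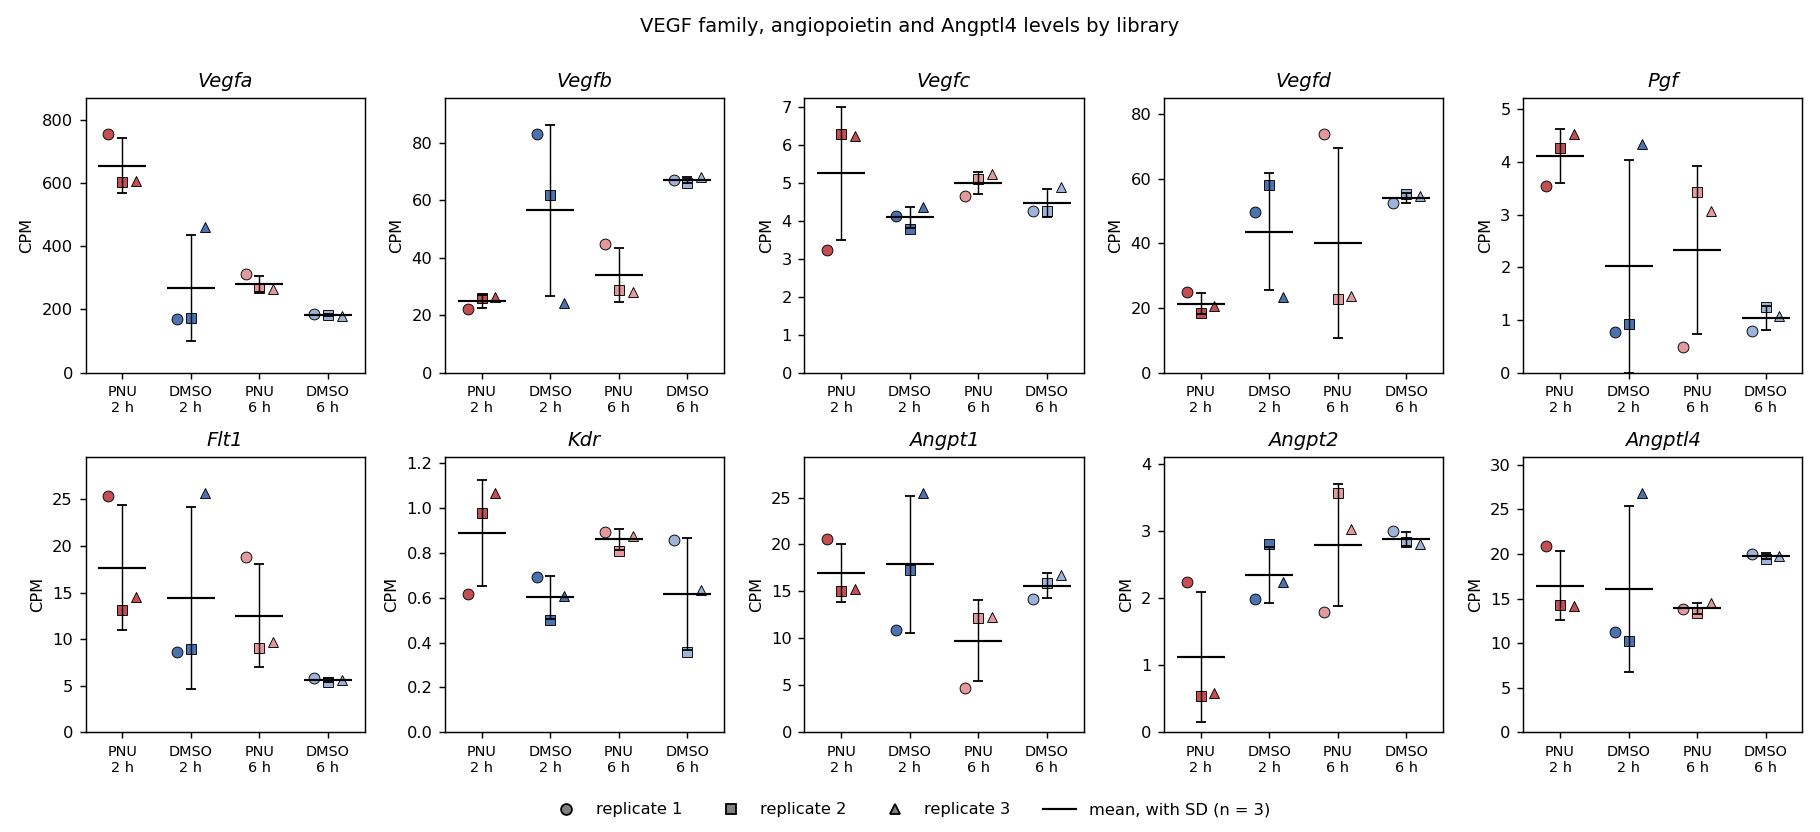
CPM of the 10 genes in each library, by group, on axes that start at 0; points are replicates 1, 2 and 3 and bars the group mean with SD (n = 3). In Vegfa the 3 PNU libraries at 2 h (604 to 758 CPM) lie above every DMSO library (170 to 461 CPM), and in Vegfb, Vegfd and Pgf replicate 3 of DMSO at 2 h lies with the PNU libraries.

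The make-up of the ligand pool was followed as each ligand's share of the 5 ligands' summed RPKM. At 2 h Vegfa took 86.5%, 82.9% and 82.4% of the pool in PNU libraries, against 34.8%, 38.4% and 78.6% in DMSO libraries. At 6 h it took 54.4%, 66.5% and 66.2% in PNU libraries, against 39.9%, 39.2% and 38.2% in DMSO libraries. Vegfa thus held the larger part of the pool in every PNU library and in replicate 3 of DMSO at 2 h, and the smaller part in the other DMSO libraries. Vegfb took 6.75%, 9.51% and 9.51% in PNU and 45.3%, 36.7% and 11.1% in DMSO at 2 h, and 20.9%, 19.0% and 18.9% in PNU and 38.1%, 37.5% and 38.7% in DMSO at 6 h. Per kilobase, Vegfa exceeded Vegfb by 12.8, 8.72 and 8.66 times in PNU at 2 h and by 2.61, 3.50 and 3.51 times in PNU at 6 h, while the ratio was 0.768, 1.05 and 7.11 in DMSO at 2 h and 1.05, 1.04 and 0.987 in DMSO at 6 h. The pool itself summed to 205, 170 and 172 RPKM in PNU and 114, 105 and 137 RPKM in DMSO at 2 h. At 6 h it summed to 133, 94.2 and 93.1 RPKM in PNU and 109, 110 and 110 RPKM in DMSO, so the totals overlapped there. Shares of one pool depend on each other, and gene-level counts do not separate splice forms of a ligand.

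**Figure D3:**
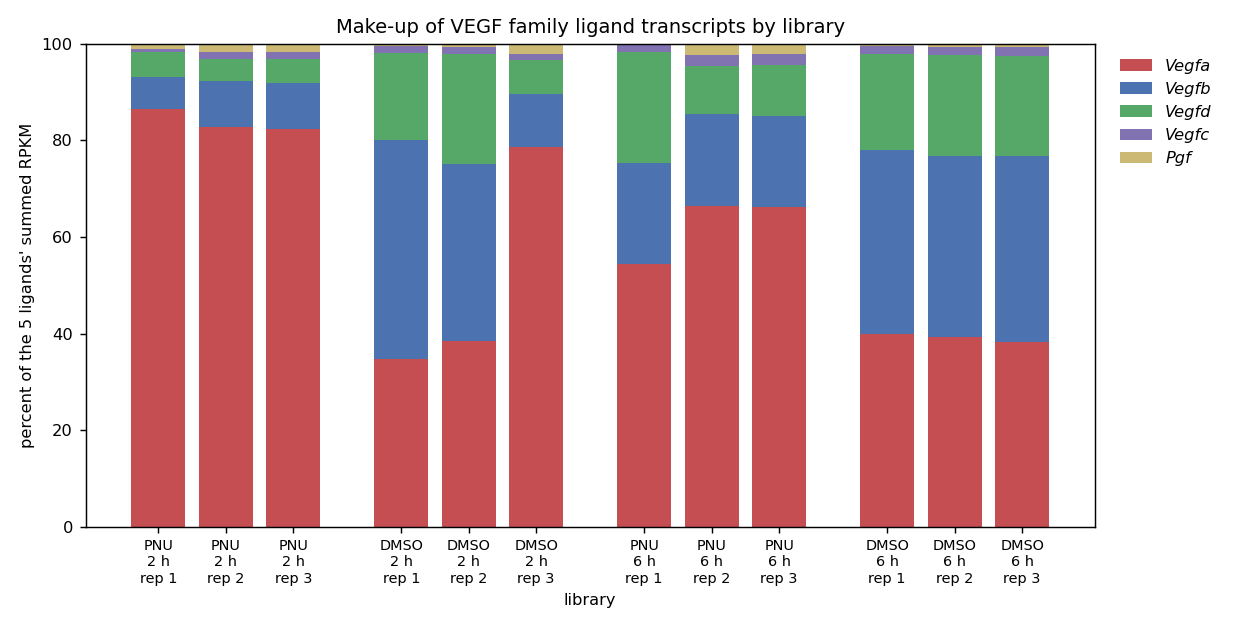
Share of each ligand in the summed RPKM of Vegfa, Vegfb, Vegfc, Vegfd and Pgf, in percent, with 1 stacked bar per library. Vegfa takes 82.4% to 86.5% in PNU at 2 h and 38.2% to 39.9% in DMSO at 6 h; replicate 3 of DMSO at 2 h, at 78.6%, resembles the PNU libraries.

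Flt1 (ENSMUSG00000029648, chr5:147561604-147726011, minus strand) encodes VEGFR1, and the counts do not tell its membrane form from its secreted form. At 2 h it was measured at 25.4, 13.1 and 14.5 CPM in PNU libraries, against 8.56, 8.92 and 25.7 CPM in DMSO libraries. In the 6 h cultures it stood at 18.8, 9.06 and 9.67 CPM in PNU libraries, against 5.84, 5.39 and 5.55 CPM in DMSO libraries. The groups overlapped at 2 h through replicate 3 of DMSO, and every PNU library was higher at 6 h. The log2 fold changes were 0.33 ± 0.44 and 1.18 ± 0.45 (adjusted p = 0.625 and 0.239). In the fit that left out both libraries that stood apart, they were 1.05 ± 0.24 and 0.76 ± 0.24, and both were called (adjusted p = 0.00394 and 0.0383); without replicate 3 of DMSO at 2 h alone, the 2 h value was called at 1.05 (adjusted p = 0.0402).

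Kdr (ENSMUSG00000062960, chr5:75932827-75978458, minus strand) encodes VEGFR2, the main signalling receptor. It stood at 0.619, 0.979 and 1.07 CPM in PNU and 0.693, 0.502 and 0.610 CPM in DMSO at 2 h, and at 0.896, 0.808 and 0.878 CPM in PNU and 0.857, 0.359 and 0.634 CPM in DMSO at 6 h. The groups overlapped at both times, with log2 fold changes of 0.59 ± 0.31 and 0.50 ± 0.31 (adjusted p = 0.217 and 0.483). Without both libraries that stood apart they were 0.61 ± 0.35 and 0.48 ± 0.34 (adjusted p = 0.161 and 0.330). Summed endothelial markers, led by Eng, Ptprb and Cd34, ranged from 404 to 457 CPM in PNU and 409 to 475 CPM in DMSO at 2 h, and from 388 to 467 CPM in PNU and 409 to 421 CPM in DMSO at 6 h, and these ranges overlapped as well.

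A list of VEGF co-receptors and modulators, set by role, holds Flt4, Nrp1 and Nrp2 beside Pdgf ligand and other modulator genes. Of its 10 tested genes, 1 passed at 6 h and 0 at 2 h, against 1.05% and 0.291% of all tested genes. The gene was Flt4, which encodes VEGFR3, the receptor of VEGF-C and VEGF-D. It stood at 7.85, 8.27 and 7.85 CPM in PNU libraries at 6 h, against 2.57, 2.65 and 2.69 CPM in DMSO libraries. It rose by 1.61 ± 0.19 on the log2 scale (adjusted p = 0.00368), and replicate 1 of PNU, which stood apart for most ligands, lay with its group here. At 2 h Flt4 stood at 4.62, 5.57 and 5.83 CPM in PNU libraries, against 2.45, 2.41 and 3.91 CPM in DMSO libraries, a log2 fold change of 0.90 ± 0.19 that was not called (adjusted p = 0.0583). In the fit that left out both libraries that stood apart, the 6 h value was 1.62 ± 0.12 (adjusted p = 2.27e-06). The 6 h call was lost only where the nearly identical libraries were summed, which left 1 unit for DMSO at 6 h and no called gene in any comparison. The neuropilin genes Nrp1 and Nrp2, which encode co-receptors, were far more abundant, at 112 to 182 CPM and 83.0 to 127 CPM over all libraries. Their log2 fold changes at 2 h were -0.28 ± 0.13 and 0.32 ± 0.13 and at 6 h -0.27 ± 0.13 and -0.06 ± 0.13, and none was called. The median log2 fold change over the 10 listed genes was 0.51 at 2 h and 0.39 at 6 h, against -0.01 and -0.00 over all tested genes. Most of these 10 are not receptor genes.

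Angpt1 (ENSMUSG00000022309, chr15:42424727-42676977, minus strand) encodes the TIE2 agonist that stabilises vessels. It stood at 20.6, 15.1 and 15.2 CPM in PNU and 10.9, 17.3 and 25.5 CPM in DMSO at 2 h, and at 4.74, 12.1 and 12.3 CPM in PNU and 14.2, 15.9 and 16.8 CPM in DMSO at 6 h. Every PNU library was lower at 6 h, with replicate 1 of PNU lowest of all. The log2 fold changes were -0.04 ± 0.34 and -0.67 ± 0.35 (adjusted p = 0.951 and 0.388), and without both libraries that stood apart they were 0.32 ± 0.17 and -0.34 ± 0.17, not called either.

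Angpt2 (ENSMUSG00000031465, chr8:18690263-18741562, minus strand) encodes the ligand that can block TIE2 and loosen vessels. At 2 h its level was 2.23, 0.544 and 0.586 CPM in PNU libraries, against 1.98, 2.80 and 2.24 CPM in DMSO libraries. The 2 low libraries are one of the nearly identical pairs. At 6 h its level was 1.79, 3.56 and 3.03 CPM in PNU libraries, against 3.00, 2.84 and 2.80 CPM in DMSO libraries, which overlapped. The log2 fold changes were -1.03 ± 0.47 and -0.03 ± 0.45 (adjusted p = 0.164 and 0.983). Without replicate 1 of PNU at 2 h, the 2 h value was -2.01 and was called (adjusted p = 0.0235), where 0.737% of all tested genes were. Without both libraries that stood apart the values were -1.08 ± 0.48 and 0.21 ± 0.44 (adjusted p = 0.0857 and 0.775). Their receptor gene Tek stood at 0.226 to 1.49 CPM over all libraries and was not called at either time, and none of the 6 tested Tie receptor and partner genes passed at 2 h or 6 h.

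Angptl4 (ENSMUSG00000002289, chr17:33773750-33781575, minus strand) encodes the secreted inhibitor of lipoprotein lipase. At 2 h it was measured at 20.9, 14.3 and 14.1 CPM in PNU libraries, against 11.2, 10.2 and 26.8 CPM in DMSO libraries. At 6 h its level was 13.8, 13.4 and 14.5 CPM in PNU libraries, against 20.1, 19.4 and 19.8 CPM in DMSO libraries. The groups overlapped at 2 h and did not at 6 h, when every PNU library was lower and no library stood apart in this gene. The log2 fold changes were 0.06 ± 0.31 and -0.49 ± 0.31 (adjusted p = 0.908 and 0.489); the SE comes from a spread estimated over all 4 groups. In a fit of the 6 h libraries alone, the 6 h value was called (-0.49, adjusted p = 0.00672), as it was without replicate 3 of DMSO at 2 h (adjusted p = 0.0491). Without that replicate the 2 h value was 0.65 and was called (adjusted p = 0.00700). In the fit that left out both libraries that stood apart, the values were 0.65 ± 0.16 and -0.49 ± 0.16 (adjusted p = 0.00487 and 0.0337).

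Lpl, which encodes the lipase that ANGPTL4 inhibits, stood at 64.5, 48.6 and 48.0 CPM in PNU and 306, 366 and 55.7 CPM in DMSO at 2 h, and at 220, 54.0 and 53.5 CPM in PNU and 301, 309 and 320 CPM in DMSO at 6 h. Its log2 fold changes, -2.13 ± 0.67 and -1.49 ± 0.66, were not called (adjusted p = 0.0854 and 0.306), and its high level in DMSO was missing from replicate 3 at 2 h. Of 9 tested genes of the lipoprotein lipase axis, 0 passed at 2 h and 1 at 6 h. This was Lipg, endothelial lipase, with 0.334, 0.482 and 0.580 CPM in PNU libraries, against 0.0226, 0.0567 and 0.0705 CPM in DMSO libraries (adjusted p = 0.0322). The DMSO levels lay near the 3-count floor, so no fold change is given. The call was lost when either nearly identical library of PNU at 2 h, either one of PNU at 6 h, or any library of DMSO at 6 h was left out, with adjusted p-values of at most 0.179, and when the nearly identical libraries were summed. It was called without both libraries that stood apart (adjusted p = 0.000469). None of the 5 other angiopoietin-like genes tested passed at either time, with median log2 fold changes of -0.32 and -0.14. The PPAR genes Ppard and Pparg, whose products induce Angptl4, were not called, at log2 fold changes of -0.01 ± 0.14 and -0.08 ± 0.15 at 2 h and -0.20 ± 0.14 and -0.63 ± 0.15 at 6 h; their target gene Pdk4 had 0.07 ± 0.21 and -0.01 ± 0.21, not called.

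**Figure D4:**
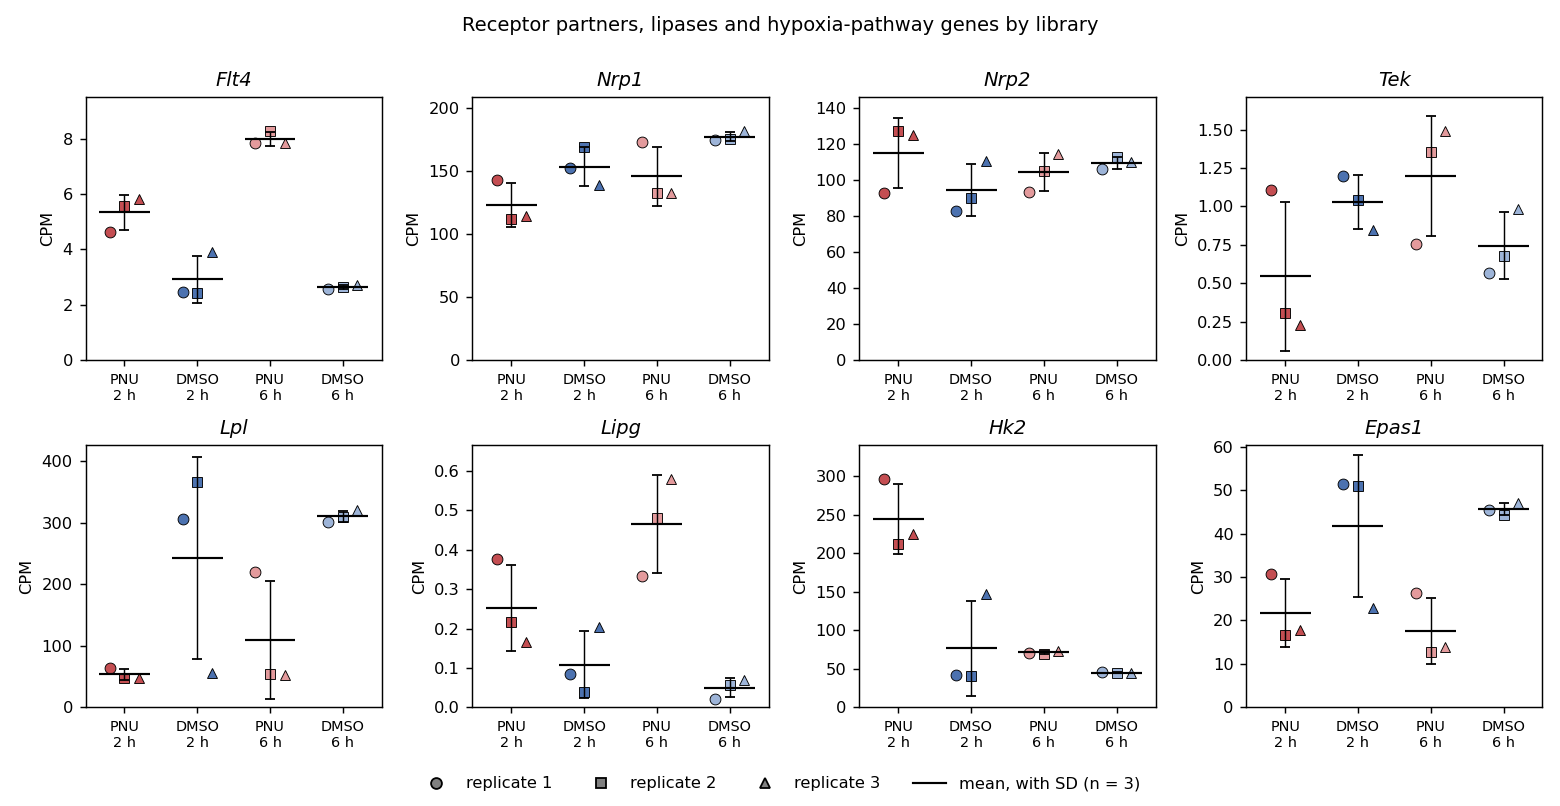
CPM of receptor partners, lipases and hypoxia-pathway genes in each library, by group, on axes that start at 0; points are replicates 1, 2 and 3 and bars the mean with SD (n = 3). Flt4 at 6 h is 7.85 to 8.27 CPM in PNU and 2.57 to 2.69 CPM in DMSO, while Lpl and Hk2 in replicate 3 of DMSO at 2 h lie with the PNU libraries.

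At 6 h, 5 of 10 members had groups that did not overlap, against 34.9% of all tested genes. Vegfa and Flt1 were higher in every PNU library, as were 14.1% of tested genes, and Vegfb, Angpt1 and Angptl4 were lower in every PNU library, as were 20.8%. At 2 h this held for 1 of 10 members, against 22.7% of tested genes. Without both libraries that stood apart, 6 of 10 members were called at each time, the same 6: Vegfa, Vegfb, Vegfd, Pgf, Flt1 and Angptl4. The share of all tested genes called in that fit was 52.2% at 2 h and 28.6% at 6 h, so the count at 2 h is close to that of all genes. In those fits Vegfa, Pgf and Flt1 rose at both times, Vegfb and Vegfd fell at both times, and Angptl4 rose at 2 h and fell at 6 h. The Y-linked gene Ddx3y also separated PNU from DMSO at 6 h there, and its part was not tested.

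**Figure D5:**
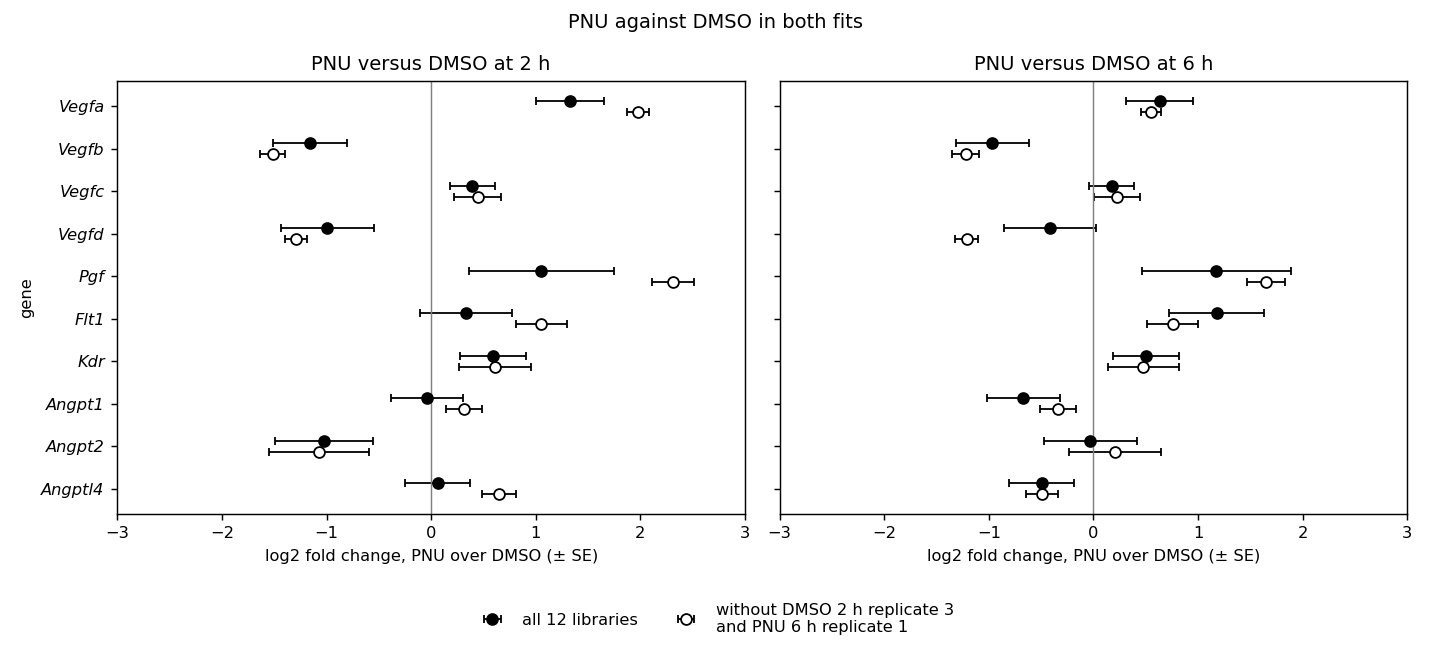
Log2 fold change of PNU over DMSO with SE at 2 h (left) and 6 h (right), for the fit of all 12 libraries (filled) and for the fit without replicate 3 of DMSO at 2 h and replicate 1 of PNU at 6 h (open). Vegfa at 2 h lies at 1.33 in the first fit and 1.98 in the second, and Angptl4 lies above 0 at 2 h and below 0 at 6 h in both fits.

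The PNU difference at 6 h minus that at 2 h was tested as an interaction. No member was called, while 0.035% of all tested genes were, and 0 of 10 members had an unadjusted p under 0.05. The values were -0.69 ± 0.45 for Vegfa (adjusted p = 0.583), -0.56 ± 0.44 for Angptl4 (adjusted p = 0.650), 0.85 ± 0.63 for Flt1 (adjusted p = 0.630) and 1.00 ± 0.64 for Angpt2 (adjusted p = 0.582). Without both libraries that stood apart, Vegfa at -1.43 ± 0.14 (adjusted p = 4.62e-05) and Angptl4 at -1.14 ± 0.22 (adjusted p = 0.00392) were called, in a fit that called 21.8% of all tested genes. Both were also called without replicate 3 of DMSO at 2 h alone, at -1.34 and -1.14, where 16.7% of all tested genes were.

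Time was compared within each arm, on the same libraries. In PNU cultures, Vegfa stood at 311, 268 and 264 CPM at 6 h, against 758, 604 and 607 CPM at 2 h, and the groups did not overlap. It fell by 1.28 ± 0.32 on the log2 scale (adjusted p = 0.0257) and was the only member called, where 16.1% of all tested genes were called and 8.66% were called lower. Leaving out any 1 of the 6 PNU libraries ended the call, with adjusted p-values between 0.0512 and 0.0796, as did testing without a filter on low counts (0.0905). Without both libraries that stood apart, the fall was 1.36 ± 0.10 and was called (adjusted p = 2.78e-06), beside Flt1, Angpt1 and Angpt2 and 35.4% of all tested genes. Angpt2 stood at 1.79, 3.56 and 3.03 CPM at 6 h, against 2.23, 0.544 and 0.586 CPM at 2 h, a log2 fold change of 1.26 ± 0.46 (adjusted p = 0.0807). It was called at 2.25 without replicate 1 of PNU at 2 h (adjusted p = 0.00711), where 6.27% of all tested genes were. Of the members, Vegfb was higher and Vegfa, Pgf and Angpt1 were lower in every 6 h library of PNU, against 30.7% of tested genes higher, 21% lower and 51.7% in either direction.

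In DMSO cultures no member was called for 6 h against 2 h, and 0% of all tested genes were, although 818 genes, 1 member among them, had an unadjusted p under 0.05, and DESeq2 called 23. That member was Flt1, at 5.84, 5.39 and 5.55 CPM at 6 h, against 8.56, 8.92 and 25.7 CPM at 2 h, a log2 fold change of -1.41 ± 0.45 (adjusted p = 0.888). Flt1 was lower and Angpt2 higher in every 6 h library of DMSO, as were 3.64% and 6.12% of tested genes, and 9.75% did not overlap in either direction. Vegfa stood at 187, 184 and 179 CPM at 6 h, against 170, 173 and 461 CPM at 2 h, and its log2 fold change of -0.59 ± 0.32 became 0.06 ± 0.10 without both libraries that stood apart. Angptl4, at 0.84 ± 0.16 (adjusted p = 0.0394), was the only member called in that fit, where 0.672% of all tested genes were called.

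Genes around the family were counted in lists set by role. Of 23 tested genes of VEGF receptor signalling, 1 passed at each time: Pxn, which encodes the focal adhesion protein paxillin, rose by 0.42 ± 0.07 at 2 h (adjusted p = 0.0432), and Hspb1, a small heat shock protein gene, rose by 0.83 ± 0.16 at 6 h (adjusted p = 0.0322). Of 23 tested HIF target genes, 0 passed at either time; 12 had a positive fold change at 2 h and 21 at 6 h, with medians of 0.06 and 0.27, against -0.01 and -0.00 over all tested genes. Hk2, which encodes a hexokinase, stood at 297, 212 and 225 CPM in PNU and 42.2, 40.2 and 148 CPM in DMSO at 2 h, a log2 fold change of 1.71 ± 0.42 (adjusted p = 0.0652). Of the 23 HIF targets, 11 went the other way at 2 h, with a negative fold change. The HIF subunit genes Hif1a and Epas1 had log2 fold changes of 0.17 ± 0.21 and -0.91 ± 0.36 at 2 h and -0.04 ± 0.21 and -1.36 ± 0.36 at 6 h, and the HIF hydroxylase gene Egln3 0.75 ± 0.27 and 0.59 ± 0.27, none of them called. None of 9 tested oxygen-sensing genes of the HIF pathway and none of 14 tested PPAR receptor and target genes passed at 2 h or 6 h. Of 13 tested genes of the glucocorticoid receptor and its targets, which are known to include Angptl4, the receptor gene Nr3c1 had log2 fold changes of -0.42 ± 0.10 and -0.12 ± 0.10 and Fkbp5 of 0.88 ± 0.23 and -0.10 ± 0.23 at 2 h and 6 h, not called. In that list, Ddit4 rose by 0.92 ± 0.15 at 2 h (adjusted p = 0.0366) and Klf9 fell by 0.57 ± 0.10 at 6 h (adjusted p = 0.0250).

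These 4 calls rested on few libraries. At 2 h, leaving out 1 library ended the call of Pxn for 10 of 12 libraries (adjusted p up to 0.212) and that of Ddit4 for 9 of 12 (up to 0.204), and both calls were lost with the 2 h libraries alone (adjusted p = 0.266). At 6 h, leaving out 1 library ended the call of Hspb1 for 7 of 12 libraries (up to 0.176) and that of Klf9 for 6 of 12 (up to 0.161), among them each library of DMSO at 6 h. With the nearly identical libraries summed, none was called. All 4 were called without both libraries that stood apart, at 0.42 ± 0.07 for Pxn, 0.97 ± 0.11 for Ddit4, 0.99 ± 0.12 for Hspb1 and -0.68 ± 0.08 for Klf9.

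For 6 h against 2 h in PNU cultures, more of these genes passed, and of all tested genes 16.1% were called, 7.42% higher and 8.66% lower. Of the HIF targets, 6 rose and 4 fell of 23, among them Hk2, which fell by 1.84 ± 0.42, the repressor gene Bhlhe40, which fell by 1.97 ± 0.43, Pfkfb4, which fell by 1.46 ± 0.31, and P4ha1, which rose by 0.32 ± 0.07. Of VEGF receptor signalling genes, 0 rose and 4 fell of 23: Nfatc1 by 2.26 ± 0.42, Rcan1 by 0.48 ± 0.13, Prkca by 0.39 ± 0.09 and Pxn by 0.31 ± 0.07. The ligand genes Pdgfd and Angpt4 rose by 1.47 ± 0.22 and 1.18 ± 0.30. Furin, which encodes a protease that cleaves VEGF-C and ANGPTL4 precursors, fell by 0.58 ± 0.11, and the lipoprotein receptor gene Vldlr by 0.52 ± 0.12. Fabp4 and Cpt1a of the PPAR list rose by 1.58 ± 0.38 and 0.41 ± 0.09, and of the glucocorticoid list Fkbp5 fell by 1.65 ± 0.23, Klf9 by 0.68 ± 0.10 and Ddit4 by 0.71 ± 0.15 while Cdkn1c rose by 2.19 ± 0.37. Adjusted p-values of these 18 genes lay between 0.00372 and 0.0294. All 18 were called in the same direction without both libraries that stood apart, and with the nearly identical libraries summed none was. Leaving out 1 library ended the call of 12 of the 18 at least once (adjusted p up to 0.103); the 6 that kept it were Pdgfd, Furin, Nfatc1, Fkbp5, Klf9 and Cdkn1c.

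Summed markers of other cell types also moved with PNU, and their part in the results above was not tested. Pericyte markers, 7 of 10 with a median above 1 CPM, summed to 4132 to 4512 CPM in PNU and 3370 to 3932 CPM in DMSO at 2 h and to 3977 to 4083 CPM in PNU and 3430 to 3502 CPM in DMSO at 6 h. Most of that sum was Acta2, at 2079 to 2364 CPM in PNU and 1502 to 2136 CPM in DMSO at 2 h and 2008 to 2405 CPM in PNU and 1622 to 1669 CPM in DMSO at 6 h, a gene that other contractile cells express too. Cspg4 stood at 579 to 639 CPM in PNU and 295 to 404 CPM in DMSO at 2 h. At 6 h its groups overlapped, with 222 to 324 CPM in PNU and 266 to 270 CPM in DMSO. Other pericyte markers did not share the 2 h order: Notch3 stood at 78.9, 47.8 and 50.7 CPM in PNU and 246, 216 and 43.3 CPM in DMSO at 2 h, and Des at 1.64 to 2.52 CPM in PNU and 2.08 to 6.28 CPM in DMSO. Photoreceptor and neuron markers, 7 of 10 below 1 CPM in every library, summed to 39.6 to 51.5 CPM in PNU and 21.0 to 31.4 CPM in DMSO at 2 h and to 39.7 to 58.6 CPM in PNU and 20.9 to 23.8 CPM in DMSO at 6 h. That sum was mostly Tubb3, at 33.4 to 34.2 CPM in PNU and 15.6 to 26.7 CPM in DMSO at 2 h, and Pax6, at 0.574, 14.9 and 14.9 CPM in PNU and at most 0.251 CPM in DMSO at 2 h. Rbpms, the third marker above 1 CPM, stood at 4.22, 1.65 and 2.36 CPM in PNU and 3.74 to 4.73 CPM in DMSO at 2 h, and Crx reached at most 0.0435 CPM. Adipocyte markers, mostly Pparg, summed to 36.2 to 39.2 CPM in PNU and 42.6 to 56.9 CPM in DMSO at 2 h, and to 27.1 to 45.3 CPM in PNU and 58.4 to 62.0 CPM in DMSO at 6 h, with Lep at or below 0.0189 CPM. At 2 h Pparg stood at 33.5 to 34.2 CPM in PNU and 32.6 to 39.5 CPM in DMSO. Fabp4 stood at 4.75, 2.42 and 2.63 CPM in PNU and 12.7, 13.4 and 4.61 CPM in DMSO. All 5 tested adipocyte markers had negative fold changes at both times. None was called at 2 h and 1 was called lower at 6 h, against 0.484% of all tested genes. Of 8 tested pericyte markers, 1 was called higher at 2 h and 2 at 6 h, against 0.21% and 0.571%. At 6 h, 2 of 10 tested fibroblast markers were called lower and 1 of 4 tested leukocyte markers higher. In the other marker lists none was called at either time. Leukocyte markers, mostly Csf1r and Cd68, summed to 9.81 to 13.9 CPM in PNU and 4.39 to 4.91 CPM in DMSO at 6 h and overlapped at 2 h, with Ptprc at or below 0.235 CPM. Fibroblast markers summed to 20133 to 21380 CPM in PNU and 21738 to 21888 CPM in DMSO at 6 h and overlapped at 2 h, and RPE markers overlapped at both times, with Rpe65 at or below 0.0442 CPM and Rgr at 0.

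Patterns across the 12 libraries were compared by Pearson's r of log2(CPM + 0.5), scaled by the trimmed mean of M-values, as a description: the 12 points share 4 groups, nearly identical libraries and the 2 libraries that stood apart. Among members, Vegfd and Pgf ran most opposite (r = -0.98), Vegfb ran with Vegfd (r = 0.86) and against Pgf (r = -0.89) and Vegfa (r = -0.85), and Flt1 ran with Vegfa (r = 0.83). Angptl4 had its highest r, 0.52, with Angpt1. Of 12691 genes with a mean of at least 1 CPM, the 3 most like Vegfa were Hk2 (r = 0.995), Srxn1 (0.991) and Uap1 (0.991), and the most opposite was Zscan21 (-0.985). Hk2 and Srxn1 had 148 and 227 CPM in replicate 3 of DMSO at 2 h, against 42.2 and 107 CPM in replicate 1 of that group, the same split as in Vegfa.

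Those most like Vegfb were Rnd2 (r = 0.995), Hvcn1 (0.994) and Aldh9a1 (0.992), with Ptp4a1 most opposite (-0.990). Vegfd was most like Ism1 (0.989), Txnip (0.984) and Steap3 (0.982) and most opposite to Itga6 (-0.982). Txnip stood at 250 CPM in replicate 1 of PNU at 6 h, against 51.8 and 49.8 CPM in the other 2, as Vegfd did. Pgf was most like Nanos1 (0.989), Endod1 (0.988) and Tmcc1 (0.987) and most opposite to Pnrc1 (-0.991). Flt1 was most like Cyp51 (0.979), Insig1 (0.963) and Stard4 (0.959), with Ctf1 most opposite (-0.925). The remaining members had less close companions: Angpt1 with Fam69a (0.944), Sephs1 (0.942) and Adgrl4 (0.937) and against Col27a1 (-0.959), Angpt2 with Cxcl5 (0.923), Pcdhga1 (0.914) and Naalad2 (0.914) and against Aatk (-0.961). Vegfc ran with Dusp15 (0.920), Serp2 (0.899) and Adcy5 (0.889) and against Mylk (-0.893), and Angptl4 with Tuba4a (0.902), Tmem100 (0.863) and Stk24 (0.849) and against Itga2 (-0.932). Kdr, with a mean under 1 CPM, was left out of this comparison.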

How the data were processed

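RNA-seq counts were used from 12 libraries of Müller glia. The authors deposited 1 table per library of whole-number counts per gene, as the values show, with Ensembl identifiers and exon lengths. Per the submitters' processing notes, fastp 0.23.2, STAR 2.5.2b, Subread 1.5.2, DESeq2 and the build GRCm38 were used, with no role stated for each; strand setting, treatment of multiply mapped reads and annotation release are not given in the sources used here, and counts per gene pool all splice forms. Symbols came from the GENCODE M21 annotation, which matched 48970 of 49315 identifiers. CPM was computed from the library total and RPKM from the deposited exon length.

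Genes were kept by filterByExpr (minimum count 10), scaled by the trimmed mean of M-values (TMM) and fitted with 4 group means by edgeR 4.0.16 (R 4.3.3, robust quasi-likelihood test, common biological coefficient of variation 0.198), with all 17164 genes in the Benjamini-Hochberg adjustment and a threshold of 0.05. The SE was the absolute log2 fold change divided by the square root of F. Alternatives were DESeq2 1.42.0, limma 3.58.1 (voom), other scalings and filters, contrast libraries only, a replicate block, nearly identical libraries summed, and libraries left out. The members and gene lists were chosen with earlier results of these data known. Beyond the members, genes were named by list: those called in a comparison, lowest p first and at most 4 per list, plus a set of receptors, partners and regulators given whatever their values; companions are the 3 genes with the highest and the 1 with the lowest r. Angpt1 shares 283 exon bases with Gm17473 on the opposite strand, which had at most 0.0218 CPM. Ligand shares are shares of summed RPKM per library and were given no counting interval; 3 counts were taken as the floor. Promoter sequences are RefSeq's on GRCm38.p6. Figures were drawn with matplotlib 3.10.9.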

Additional observations from a re-analysis of the deposited data

How the results depend on the processing

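Genes called for PNU against DMSO at 2 h numbered 50, against 140 with no filter on low counts, 2511 with DESeq2, 0 with the 2 h libraries alone, 0 with nearly identical libraries summed and 9080 without both libraries that stood apart; members called were 0, against 2 with DESeq2 and 6 without both. At 6 h the counts were 181, against 923, 1646 in the contrast's libraries alone, 0 summed and 4981 without both, with 3 members called in the contrast's libraries alone and 6 without both. For the interaction they were 6, against 15 with no filter, 279 with DESeq2, 0 summed and 3788 without both, with 2 members in the last. For time in DMSO they were 0, against 23 with DESeq2 and 117 without both, with 1 member in the last. For time in PNU they were 2759, against 5311 in the contrast's libraries alone, 0 summed and 6170 without both; members called were 1, against 0 with no filter, 2 with DESeq2, 2 with voom, 0 summed and 4 without both. Summing left 8 units, and 1487, 267, 226, 59 and 2236 genes then had an unadjusted p under 0.05 in the 5 comparisons. Upper-quartile scaling gave 1880 genes higher and 1102 lower for time in PNU, against 1273 and 1486. Leaving out 1 library gave 0 to 7724 genes and 0 to 5 members at 2 h, 22 to 1606 and 0 to 3 at 6 h, 0 to 2947 and 0 to 2 for the interaction, 0 to 4 and 0 to 0 for time in DMSO, and 566 to 6026 and 0 to 1 for time in PNU; both upper ends at 2 h and 6 h came without replicate 3 of DMSO at 2 h.

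Signs that turned belonged to values that were not called in the main fit. Flt1 and Angptl4 at 2 h and Angptl4 for time in DMSO were among them, although each was called in fits that left libraries out. Angpt1 at 2 h was 0.0035 with voom, 0.042 summed and 0.32 without both; Angpt2 at 6 h was 0.21 without both. For the interaction, Vegfb was -0.043 with voom, Pgf was -0.68 with voom, -0.16 summed and -0.67 without both, Flt1 was -0.30 without both, and Kdr was 0.034 summed. For time in DMSO without both, Vegfa was 0.061, Vegfb -0.16, Vegfd -0.020, Pgf 0.26 and Angpt1 0.13, and Kdr was 0.022 with upper-quartile scaling. Leaving out 1 library, ranges that crossed 0 were, at 2 h, Flt1 -0.039 to 1.05, Angpt1 -0.28 to 0.31 and Angptl4 -0.20 to 0.65; at 6 h, Angpt2 -0.23 to 0.21; for the interaction, Vegfb -0.24 to 0.55, Vegfd -0.22 to 0.87, Pgf -1.13 to 0.60 and Kdr -0.37 to 0.21. For time in DMSO they were Vegfa -0.84 to 0.059, Vegfb -0.16 to 0.64, Vegfd -0.023 to 0.50, Pgf -1.38 to 0.26, Kdr -0.32 to 0.26, Angpt1 -0.47 to 0.12 and Angptl4 -0.0052 to 0.84, and for time in PNU Vegfc -0.37 to 0.013 and Kdr -0.30 to 0.047. The cause was not tested. Kdr had no value under a filter of 1 CPM.

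Whether the replicate numbers pair the samples was not settled, and the main fit used no block. Of 18 same-number pairs, 5 had a correlation of deviations above 0.1 (range -0.38 to 0.50), and 8 of 12 libraries correlated best with their own number. With the replicate block, 311 genes were called at 2 h, 296 at 6 h, 0 for the interaction and 2847 for time in PNU; Angpt1 at 2 h was 0.061 and Pgf in the interaction -0.39.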
